A study of Mus musculus with 6 samples.

Results

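The genes described are the interferon-stimulated genes outside the Ifitm family, a module of 36 genes listed by name. The rule that lists them uses no measured value, but the module was chosen with earlier results of these data known. A gene counted as measured where a probe set carried its symbol and no other, and its brightest such probe set, by mean, stood for it. That left 34 of the 36 genes, out of 19938 genes tested. Ifi44 was not analysed here, and Gbp2 shared its probe set with Gbp2b and is given only as that shared signal. RNA came from keratinocytes that were cut out by laser at the advancing epithelial tip of mouse skin wounds, 3 days after wounding, and it was hybridised to 1 expression array per sample. The diabetic group (3 arrays) came from mice that were put on a diet high in fat and fructose at 8 weeks of age and kept on it for 16 weeks. The normal group (3 arrays) came from mice given a control diet over the same 16 weeks. The labels name no strain, sex or genetic change. In both groups the tissue was fixed, and cells from several sections of 1 sample went into a single tube. The titles number the samples as biological replicates but do not say that each came from its own mouse, so each p-value is set against the spread of these samples alone, which may be technical.

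Interferons are secreted when cells sense foreign nucleic acid or, for the type II form, when lymphoid cells are activated. Type I interferon binds the Ifnar1 and Ifnar2 receptor pair and acts through a complex with Stat2 and Irf9 that binds the interferon-stimulated response element, while interferon gamma binds Ifngr1 and Ifngr2 and acts on the gamma-activated site. The induced genes encode RNA sensors, antiviral enzymes, membrane tethers and peptide transporters, and keratinocytes can both make and answer interferon at the skin surface.

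Promoter sequences are shown first because interferon acts on its target genes through these elements. The rule that lists the genes reads no sequence. It does list them as interferon-stimulated, so a raised share of cores among them is not an independent finding. RefSeq promoter windows of build GRCm38.p6, from 250 bases before to 50 after the gene start, were found for 30 of the 36 genes. The 6 without a window in that table were Usp18, Oas2, Mx1, Mx2, Rtp4 and Tap2. The core GAAANNGAA of the response element, searched on both strands, occurred in a window of 13 of these 30 genes (43.3%), against 9.76% of all 27025 genes with a window. The core TTCNNNGAA of the gamma-activated site, which reads the same on both strands, occurred in 8 of 30 (26.7%), against 9.55% of all genes. An overlapping pair, with a second response element core starting 6 bases after the first on the same strand, was looked for after the windows had been seen. It occurred in 5 of 30 genes (16.7%), Ifit1, Oas1a, Oas3, Bst2 and Gbp3, against 0.240% of all genes. A match of letters is a description of the window and not a bound site.

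The stretches below hold those 5 pairs, the Ifit3 cores for comparison with Ifit1, and the gamma-activated core of Irf1. Each is printed 5′ to 3′ along its gene, with 8 flanking bases on each side. Capitals mark the response element cores or, in Irf1, the gamma-activated core, so most of the gamma-activated core that Bst2 also holds is in lower case. A core on the opposite strand appears as its reverse complement. Ifit1 is at chr19:34640772-34640821 and Ifit3 at chr19:34583366-34583443, both on the plus strand. Oas1a is at chr5:120907523-120907553 and Oas3 at chr5:120777712-120777742, both on the minus strand. Bst2 is at chr8:71537580-71537610 on the minus strand, Gbp3 at chr3:142559992-142560022 on the plus strand and Irf1 at chr11:53769916-53769940 on the plus strand.
Ifit1: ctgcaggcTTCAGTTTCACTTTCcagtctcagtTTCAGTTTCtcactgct
Ifit3: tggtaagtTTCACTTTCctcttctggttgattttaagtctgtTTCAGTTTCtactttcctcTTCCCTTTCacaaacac
Oas1a: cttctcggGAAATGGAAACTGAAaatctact
Oas3: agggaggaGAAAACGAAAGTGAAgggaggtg
Bst2: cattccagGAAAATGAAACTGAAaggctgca
Gbp3: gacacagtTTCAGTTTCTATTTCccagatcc
Irf1: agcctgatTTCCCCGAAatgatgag

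Ifit1 and Ifit3, paralogs of 1 gene cluster on chromosome 19, each held 3 cores before the start. Those of Ifit1 began 109, 103 and 84 bases before it, and those of Ifit3 began 155, 121 and 102 bases before it. Of the 5 pairs, that in Oas1a lay closest to the start, beginning 20 and 14 bases before it. Bst2 and Oas1a held both kinds of core, and in Bst2 the gamma-activated core, beginning 136 bases before the start, ran into the first response element core at 130.

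**Figure D1:**
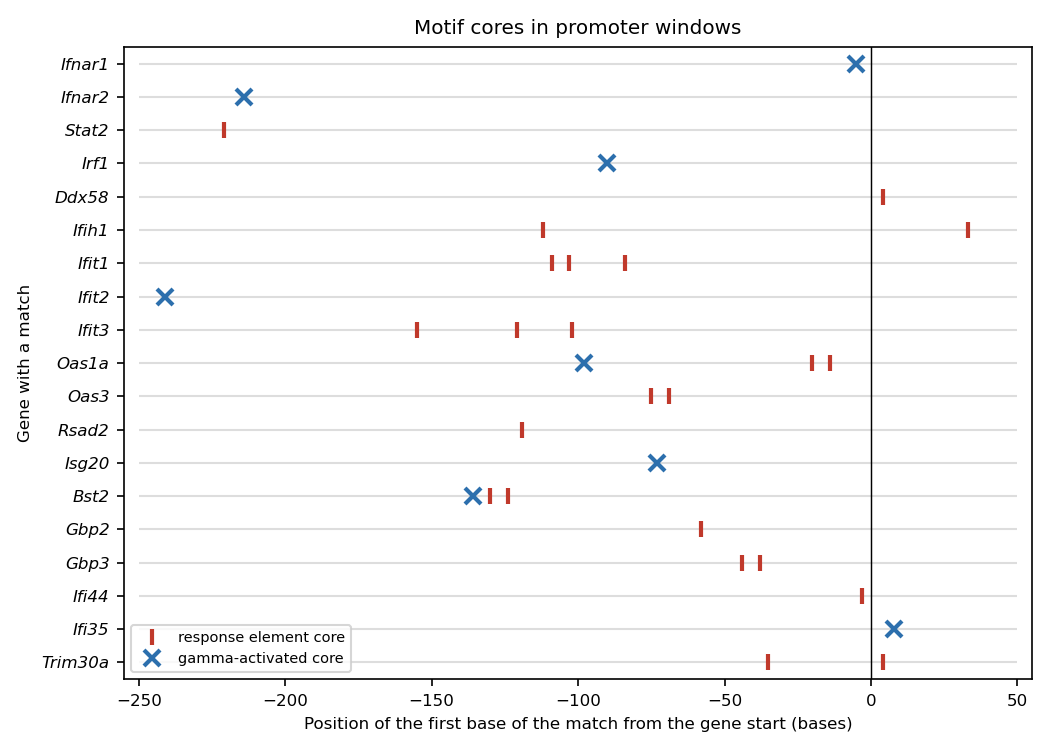
Positions of motif cores in the promoter windows of the 19 genes with at least 1 match; the horizontal axis gives the first base of the match relative to the gene start in bases, vertical bars mark response element cores, crosses mark gamma-activated cores, and genes with several windows share a row. The cores of Ifit1, Ifit3, Oas3, Gbp3, Rsad2 and Bst2 lie upstream of the start.

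The arrays were dim, and that bounds what can be said about these genes. All values are log2 probe set signals. A background limit was set for each array from 1190 genes for olfactory or vomeronasal receptors, which are largely silent outside sensory tissue: 95% of these genes lay under it, and it fell between 1.98 and 2.12. Signal exceeded the limit on all 6 arrays for 7 of the 34 genes (20.6%), namely Ifngr2, Irf9, Irf1, Oasl1, Oasl2, Isg20 and Tap2, against 17.3% of all genes tested. Another 7 exceeded it on some arrays, and 20 (58.8%) on none, against 51.5% of all genes tested. The diabetic arrays had 9, 10 and 9 of the 34 above the limit and the normal arrays 10, 10 and 9. Of all genes tested, 29.1% to 36.5% of those on a diabetic array and 27.4% to 28.4% of those on a normal array exceeded it, and the limit itself was lowest on diabetic replicates 1 and 2. A signal under the limit was not told apart from that of the receptor genes, and it sets no bound on the RNA of a gene. Below, measurable means only that the signal was above the limit. B2m, the light chain of MHC class I, which nearly all nucleated cells express, was itself under the limit on every array, at 1.22, 1.25 and 1.22 on the diabetic arrays, against 0.94, 1.59 and 1.32 on the normal ones (named after its values were seen). In captured tissue, fewer cells of a type and less RNA per cell cannot be told apart.

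The labelled cell type stood out little by this limit. Of 16 keratinocyte markers, 3 (18.8%) exceeded it on all 6 arrays, against 17.3% of all genes tested, and 6 (37.5%) never did, against 51.5%. For marker lists of other cell types, the share above it on all arrays ran from 0% for neutrophils to 23.1% for dendritic cells and 27.3% for fibroblasts. The keratinocyte markers had a summed log2 signal of 32.2 to 33.5 on the diabetic arrays, against 33.0 to 34.5 on the normal ones. Cdh1, the E-cadherin gene of epithelial junctions, stayed below the limit on each of the 6 arrays. The basal keratin genes Krt5 and Krt14, and Krt1, were each above it on 2 diabetic and 0 normal arrays, and Dsg3 on 3 and 1. Dsp was above it on 2 diabetic and 3 normal arrays, Trp63 on 0 and 2, and Perp on 0 and 1. Sfn, Itgb4 and Krt10 were the markers above it on all 6. The limit differed between arrays. Krt14 at 2.05 passed the limit of 2.01 on diabetic replicate 2, while at 2.07 it did not pass 2.11 on normal replicate 2. The markers in this paragraph were named after their values were seen.

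None of the interferon-stimulated genes reached the adjusted threshold in diabetic keratinocytes set against normal ones. In limma with Benjamini-Hochberg adjustment over all genes, 0 of the 34 had an adjusted p under 0.05, the smallest being 0.780 for Mx2, where 0% of all genes tested passed. The median difference, diabetic minus normal, was -0.02 over the 34 genes, with 15 higher and 19 lower, against less than 0.01 in size over all genes, of which 48.7% were higher. The 34 differences ran from -0.41 for Mx2 to 0.27 for Tap1, and 0 of them reached 1.5-fold, which 63 of all 19938 genes did. The median size of a difference was 0.12 for these genes, close to their median standard error (SE) of 0.13 and below their median within-group SD of 0.15. Over all genes the median size was smaller, 0.10, with a median SE of 0.13 and a median within-group SD of 0.15. The 95% confidence interval lay within 2-fold in either direction for all 34 and within 1.5-fold for 31, the exceptions being Ifnar1, Oas2 and Mx2. Of all 19938 genes tested, 19855 had an interval within 2-fold and 18121 within 1.5-fold, so these counts are not particular to the module. For genes under the limit these intervals describe array signal and not RNA.

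**Figure D2:**
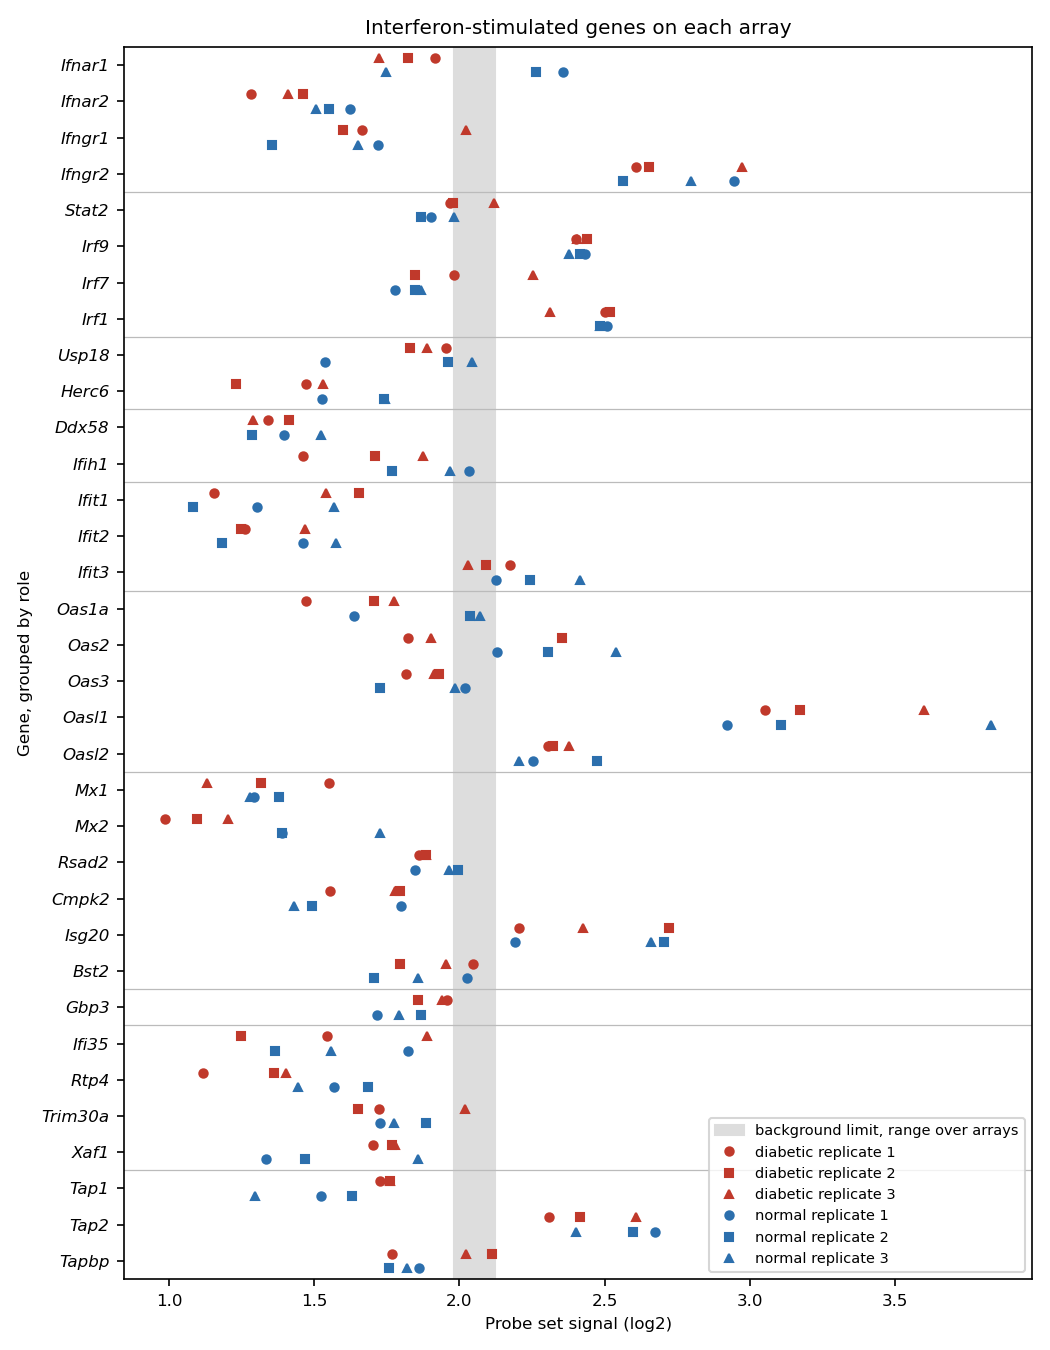
Log2 probe set signal of the 34 genes on each of the 6 arrays, with diabetic arrays (red) drawn above normal arrays (blue), symbols marking replicates, horizontal lines separating the roles and the grey band spanning the background limits of 1.98 to 2.12. Most genes lie at or left of the band, and the groups overlap for all but Ifnar2, Mx2, Rtp4 and Tap1.

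At an unadjusted p under 0.05 there were 4 of the 34 genes (11.8%), where 5.56% of all genes passed. Tap1 was higher in diabetic samples, where 2.64% of all genes were, and Mx2, Rtp4 and Herc6 were lower, where 2.92% were. All 4 were under the background limit on every array. Among all genes that were under it on every array, 1.15% passed as higher and 3.49% as lower in diabetic samples. None of the 18 genes of the module that remained once the dimmer 50% of genes were left out had an unadjusted p under 0.05 in limma, where 5.65% of the genes kept did. The 3 diabetic and 3 normal values did not overlap for 4 genes (11.8%), where 10.7% of all genes tested did not overlap. Tap1 lay above, where 5.02% of all genes did, and Ifnar2, Mx2 and Rtp4 lay below, where 5.66% did. The count at an unadjusted p under 0.05 was 1 without diabetic replicate 1 and 2 without normal replicate 2.

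**Figure D3:**
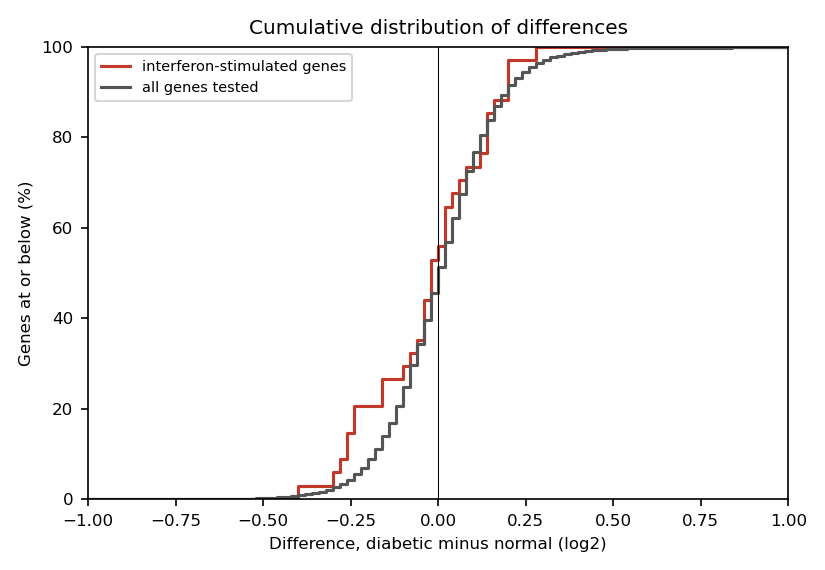
Cumulative share of genes, in percent, at or below each difference (diabetic minus normal, log2) for the 34 interferon-stimulated genes (red) and all 19938 genes tested (grey), with differences beyond 1 in either direction not drawn. The medians are -0.02 for the interferon-stimulated genes and less than 0.01 in size for all genes.

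Among the receptors, the signals of both type I chains were lower in diabetic samples, but neither difference passed. Ifnar1, the signalling chain that recruits Tyk2, was at 1.92, 1.82 and 1.72 on the diabetic arrays, against 2.36, 2.26 and 1.75 on the normal ones. Normal replicate 3 lay among the diabetic values, and only the other two normal arrays were above the limit. The difference was -0.30 (SE 0.16, adjusted p 0.893 in limma), and -0.49 without normal replicate 3. Ifnar2, the chain that binds interferon most tightly, was at 1.28, 1.46 and 1.41 on the diabetic arrays, against 1.62, 1.55 and 1.51 on the normal ones. All diabetic values were below all normal values, under the limit throughout, with a difference of -0.18 (SE 0.10, adjusted p 0.893 in limma). Ifngr1, the ligand-binding chain for interferon gamma, differed by 0.19 (SE 0.14), with diabetic replicate 3 at 2.02 and the other diabetic arrays at 1.66 and 1.60. Ifngr2, its partner chain, was measurable on every array, at 2.61, 2.65 and 2.97 on the diabetic arrays, against 2.94, 2.56 and 2.80 on the normal ones. The groups overlapped, and the difference was -0.02 (SE 0.16).

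Of the 4 factors that carry the signal, Irf9 and Irf1 were above the limit on all arrays. Irf9, the DNA-binding subunit that joins Stat2, was at 2.40, 2.44 and 2.41 on the diabetic arrays, against 2.43, 2.41 and 2.38 on the normal ones. These 6 values spanned less than 0.1, and the difference was 0.01 (95% interval -0.25 to 0.26). Irf1, a factor induced mainly by interferon gamma, was at 2.50, 2.52 and 2.31 on the diabetic arrays, against 2.51, 2.48 and 2.49 on the normal ones, a difference of -0.05 (SE 0.12). Its second probe set, which is dimmer, was at 1.79, 1.59 and 1.66 on the diabetic arrays, against 1.82, 2.24 and 1.94 on the normal ones, a difference of -0.32. The probe sets of Irf1 therefore differed in size, and in the second all diabetic values were below all normal values.

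Irf7, the factor that amplifies interferon alpha production, was at 1.98, 1.85 and 2.25 on the diabetic arrays, against 1.78, 1.85 and 1.87 on the normal ones. Its difference of 0.20 (SE 0.13, adjusted p 0.906 in limma) leaned on diabetic replicate 3, the only array above the limit, and was 0.08 without it. Stat2, the transducer particular to type I and III signalling, differed by 0.10 (SE 0.11) and was likewise above the limit only on diabetic replicate 3, at 2.12. With the brightest probe set of each gene, the groups overlapped for each of the 4 factors. Their summed log2 signal was 8.78 to 9.09 on the diabetic arrays, against 8.61 to 8.71 on the normal ones, without overlap, and was not tested. That sum leaves out the second probe set of Irf1, which was lower on all diabetic arrays, so the separation holds only for the probe sets chosen.

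The feedback and conjugation genes were under the limit on every array. Usp18, the protease that removes ISG15 and dampens the type I receptor, was at 1.95, 1.83 and 1.89 on the diabetic arrays, against 1.54, 1.96 and 2.04 on the normal ones. Normal replicate 1 set its sign, since the difference was 0.04 with it and -0.11 without it. Herc6, the main ligase for ISG15 in mice, was at 1.47, 1.23 and 1.53 on the diabetic arrays, against 1.53, 1.74 and 1.74 on the normal ones. The groups met at diabetic replicate 3 and normal replicate 1. The difference was -0.26 (SE 0.12, adjusted p 0.891 in limma).

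The cytosolic RNA sensors were also under the limit throughout. Ifih1, which encodes the sensor of long double-stranded RNA, was at 1.46, 1.71 and 1.87 on the diabetic arrays, against 2.03, 1.77 and 1.97 on the normal ones. The groups overlapped, and the difference was -0.24 (SE 0.13, adjusted p 0.893 in limma). Ddx58, which encodes RIG-I, the sensor of RNA with a triphosphate end, differed by -0.05 (SE 0.10), with values between 1.28 and 1.52 on all arrays.

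Of the IFIT genes, Ifit1 encodes a protein that binds viral RNA lacking host cap methylation, and IFIT transcripts are among the most strongly inducible by interferon. Ifit1, whose promoter stretch is printed above, was at 1.16, 1.65 and 1.54 on the diabetic arrays, against 1.30, 1.08 and 1.57 on the normal ones, all under the limit. Ifit2 ran from 1.18 to 1.58 over the 6 arrays, also under it. Ifit3 was at 2.17, 2.09 and 2.03 on the diabetic arrays, against 2.13, 2.24 and 2.41 on the normal ones, above the limit on 2 diabetic and 3 normal arrays. The groups overlapped for each of the 3 genes, with differences of 0.13 (SE 0.15) for Ifit1, -0.08 (SE 0.12) for Ifit2 and -0.16 (SE 0.12) for Ifit3. Ifit3 has close paralogs, and signal shared with them was not tested.

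Oligoadenylate synthetases make the second messenger that activates RNase L. Of the 5 family genes, 4 were lower and 1 higher in diabetic samples, and 0 had an unadjusted p under 0.05. Oas2 was at 1.82, 2.35 and 1.90 on the diabetic arrays, against 2.13, 2.31 and 2.54 on the normal ones. Diabetic replicate 2 lay among the normal values, and the difference was -0.30 (SE 0.16, adjusted p 0.893 in limma), or -0.46 without that array. Oas1a, which carries the overlapping pair of cores, was at 1.47, 1.70 and 1.78 on the diabetic arrays, against 1.64, 2.03 and 2.07 on the normal ones, a difference of -0.26 (SE 0.14) with all arrays under the limit. A probe set shared by Oas1a and Oas1g differed by -0.01. Oas3, the synthetase of the longest products, differed by -0.02 (SE 0.12), with values between 1.73 and 2.02.

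Both OAS-like genes were above the limit on all 6 arrays. Oasl1, which in mice restrains Irf7 translation, was at 3.05, 3.17 and 3.60 on the diabetic arrays, against 2.92, 3.11 and 3.83 on the normal ones. Its spread within each group was wider than the difference of -0.01 (SE 0.23). It was also the 1 gene of the module that stayed above the limit on all 6 arrays when the 99th percentile of the receptor genes set it. Oasl2, a synthetase with a ubiquitin-like tail, was at 2.30, 2.32 and 2.38 on the diabetic arrays, against 2.25, 2.47 and 2.20 on the normal ones, a difference of 0.02 (SE 0.13).

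Of the antiviral effectors, Mx2 had the smallest p of the module. Mx1 and Mx2 encode dynamin-like GTPases that block viral replication, and both are disabled by mutation in many inbred mouse strains. Mx2 was at 0.99, 1.09 and 1.20 on the diabetic arrays, against 1.39, 1.39 and 1.73 on the normal ones. All diabetic values were below all normal values, and all 6 were far under the limit. The difference was -0.41 (SE 0.11, unadjusted p 0.00412, adjusted p 0.780 in limma), and it ran from -0.46 to -0.29 with single arrays left out. Mx1 differed by 0.02 (SE 0.11), with values between 1.13 and 1.55.

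Isg20, an exonuclease that degrades viral RNA, was the only effector measurable on every array, at 2.21, 2.72 and 2.43 on the diabetic arrays, against 2.19, 2.70 and 2.66 on the normal ones. One array of each group was low and the groups overlapped, with a difference of -0.07 (SE 0.18). Rsad2 encodes viperin, a radical SAM enzyme that makes a chain-terminating nucleotide, and its neighbour Cmpk2 encodes a mitochondrial nucleotide kinase. Rsad2 was at 1.86, 1.88 and 1.89 on the diabetic arrays, against 1.85, 1.99 and 1.97 on the normal ones, and Cmpk2 differed by 0.14 (SE 0.13). Bst2, the tether that holds budding virions at the membrane, differed by 0.07 (SE 0.13) and was above the limit only on diabetic replicate 1, at 2.05.

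Gbp3, a guanylate-binding GTPase of cell-autonomous immunity, was at 1.96, 1.86 and 1.94 on the diabetic arrays, against 1.72, 1.87 and 1.79 on the normal ones, a difference of 0.13 (SE 0.11). The probe set shared by Gbp2 and Gbp2b was at 1.61, 1.76 and 1.60 on the diabetic arrays, against 2.10, 1.90 and 1.62 on the normal ones, a difference of -0.22 that was not tested. The signals of these GTPase probe sets overlapped between groups.

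The remaining induced genes were under the limit on every array. Rtp4, a Golgi chaperone for certain receptors, was at 1.12, 1.36 and 1.40 on the diabetic arrays, against 1.57, 1.68 and 1.44 on the normal ones. All diabetic values were below all normal values, by 0.04 at the closest, and the difference was -0.27 (SE 0.11, unadjusted p 0.0331, adjusted p 0.871 in limma). Xaf1, an antagonist of the caspase inhibitor XIAP, was at 1.70, 1.77 and 1.78 on the diabetic arrays, against 1.33, 1.47 and 1.86 on the normal ones, a difference of 0.20 (SE 0.14) that was 0.35 without normal replicate 3. Ifi35, a leucine zipper protein that partners Nmi, differed by -0.02 (SE 0.16). Trim30a, which restrains Toll-like receptor signalling in mice, differed by less than 0.01 (SE 0.13).

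Tap1 and Tap2 form the transporter that feeds peptides to MHC class I, and Tapbp encodes tapasin, which docks them. Tap1 was at 1.73, 1.76 and 1.76 on the diabetic arrays, against 1.52, 1.63 and 1.30 on the normal ones. All diabetic values were above all normal values, and all were under the limit. The difference was 0.27 (SE 0.11, unadjusted p 0.0385, adjusted p 0.887 in limma), and 0.17 without normal replicate 3. Tap2, the other transporter chain and measurable on every array, was at 2.31, 2.41 and 2.61 on the diabetic arrays, against 2.67, 2.60 and 2.40 on the normal ones. Its groups overlapped, and its difference of -0.11 (SE 0.14) had the opposite sign to that of Tap1. Tapbp differed by 0.16 (SE 0.12), with 1 diabetic array above the limit, replicate 2 at 2.11.

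**Figure D4:**
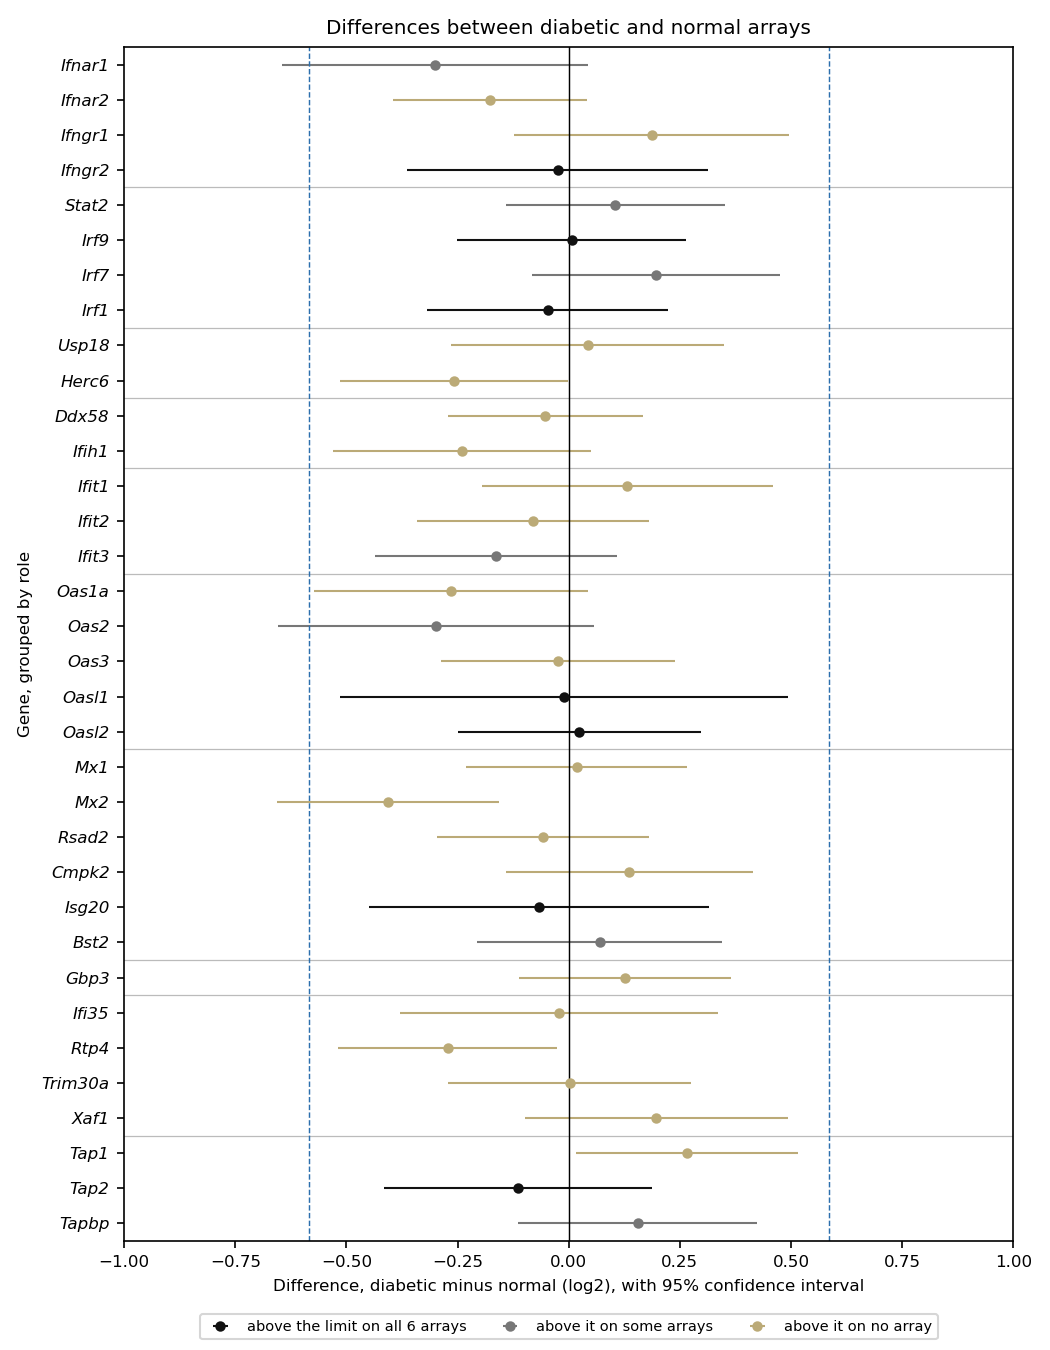
Difference between diabetic and normal arrays (log2) for each of the 34 genes with its 95% confidence interval from limma, shaded by how many arrays were above the background limit; dashed lines mark 1.5-fold. The intervals of the 7 genes measurable on all arrays include 0, and those that leave 0 out belong to Mx2, Rtp4, Herc6 and Tap1, which were under the limit throughout.

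For the 7 genes that were measurable, meaning above the limit, on all 6 arrays, differences lay between -0.11 and 0.02. The smallest adjusted p among them in limma was 0.940, and all 7 intervals lay within 1.5-fold, as did 2885 of the 3451 intervals of all genes measurable on all arrays. All genes measurable on all arrays had a median difference of 0.02, and 55.1% of them were higher in diabetic samples, while all genes under the limit on every array had a median of -0.03 with 41.6% higher.

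Direction was also counted by promoter core. Of the 11 measured genes with a response element core, 5 were higher and 6 lower in diabetic samples, with a median difference of -0.02. Of the 17 measured genes whose windows lacked the core, 8 were higher and 9 lower, with a median of -0.01. Of the 8 with a gamma-activated core, 1 was higher and 7 lower, with a median of -0.07, and of the 20 without it 12 were higher and 8 lower, with a median of 0.01. These splits are descriptions and were not tested.

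In 5 lists of the pathway around the module, with 11, 12, 12, 35 and 12 measured genes, 1 gene had an unadjusted p under 0.05 in limma. Of all genes tested, 5.56% did. Interferon ligand genes had 6 of 11 measured members higher and 5 lower, a median difference of 0.03, and 0 with an unadjusted p under 0.05 in limma. Ifna4 was at 1.89, 1.73 and 1.71 on the diabetic arrays, against 1.55, 1.50 and 1.63 on the normal ones, without overlap but under the limit, and Ifna2, Ifna11 and Ifna13 differed by -0.26, -0.21 and -0.19. Ifnb1, the interferon beta gene, named after its values were seen, was at 1.64, 1.63 and 1.67 on the diabetic arrays, against 1.71, 1.69 and 2.00 on the normal ones, so 1 of 11 ligands lay above without overlap and 1 below, where 5.02% and 5.66% of all genes did. The interferon alpha genes are near-identical copies, so their probe sets may share signal. Ifnl2 and Ifna5 were the only ligands above the limit on all arrays (named after their values were seen), with differences of 0.32 and 0.17.

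Among kinases, STATs and suppressors, 5 of 12 measured genes were higher and 7 lower, with a median of -0.04. Pias1, an inhibitor of activated STAT proteins, was the only one with an unadjusted p under 0.05, at 1.26, 1.39 and 1.37 on the diabetic arrays, against 1.64, 1.57 and 1.51 on the normal ones. Its difference was -0.23 (SE 0.10, adjusted p 0.876 in limma), under the limit on every array. The receptor kinases Jak1 and Jak2 differed by -0.31 (SE 0.16) and -0.18 (SE 0.12), and the phosphatase gene Ptpn6 by 0.18 (SE 0.13).

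Genes that sense nucleic acid upstream of interferon had 7 of 12 higher and 5 lower, with a median of 0.06 and 0 with an unadjusted p under 0.05 in limma. Tlr9, the receptor for unmethylated CpG DNA, was measurable on every array, at 2.68, 2.63 and 2.85 on the diabetic arrays, against 2.65, 2.13 and 2.46 on the normal ones, a difference of 0.31 (SE 0.15, adjusted p 0.893 in limma). Irf3, the factor that switches on the interferon beta gene, differed by 0.21 (SE 0.13), Irf5 by 0.14 (SE 0.17) and the RIG-I ligase gene Trim25 by -0.28 (SE 0.13).

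A second list of interferon-stimulated genes, outside the 36, had 12 of 35 measured members higher and 23 lower, a median of -0.04, and 0 with an unadjusted p under 0.05 in limma. Its summed log2 signal was 61.9 to 63.0 on the diabetic arrays, against 63.0 to 63.5 on the normal ones, with diabetic values below normal ones by less than 0.01 at the closest. Without overlap, 0 of the 35 lay above and 4 below, where 5.02% and 5.66% of all genes did. The immunity GTPase gene Iigp1 differed by -0.16 (SE 0.09), the DNA sensor family gene Ifi203 by -0.21 (SE 0.13), the nucleotide hydrolase gene Samhd1 by -0.19 (SE 0.12) and the ubiquitin ligase gene Dtx3l by 0.15 (SE 0.10). For the 34 genes of the module the same sum was 61.6 to 66.2 on the diabetic arrays, against 64.2 to 66.7 on the normal ones, with overlap.

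Class I presentation and immunoproteasome genes had 7 of 12 higher and 5 lower, with a median of 0.03. Psme1, a proteasome activator subunit, was at 3.01, 3.03 and 3.02 on the diabetic arrays, against 2.61, 2.98 and 2.89 on the normal ones, without overlap, and differed by 0.20 (SE 0.14, adjusted p 0.911 in limma). Psmb9, an immunoproteasome subunit, differed by 0.18 (SE 0.15), and the chaperone genes Calr and Canx by -0.19 (SE 0.11) and -0.19 (SE 0.12). Of the 12, 1 lay above without overlap, Psme1, where 5.02% of all genes did, and 3 lay below, Calr, Canx and Psmb8, where 5.66% did. Psmb8, an immunoproteasome subunit named after its values were seen, was above the limit on every array and differed by -0.14. Of the 12, 5 exceeded the limit on all arrays and 6 never did.

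**Figure D5:**
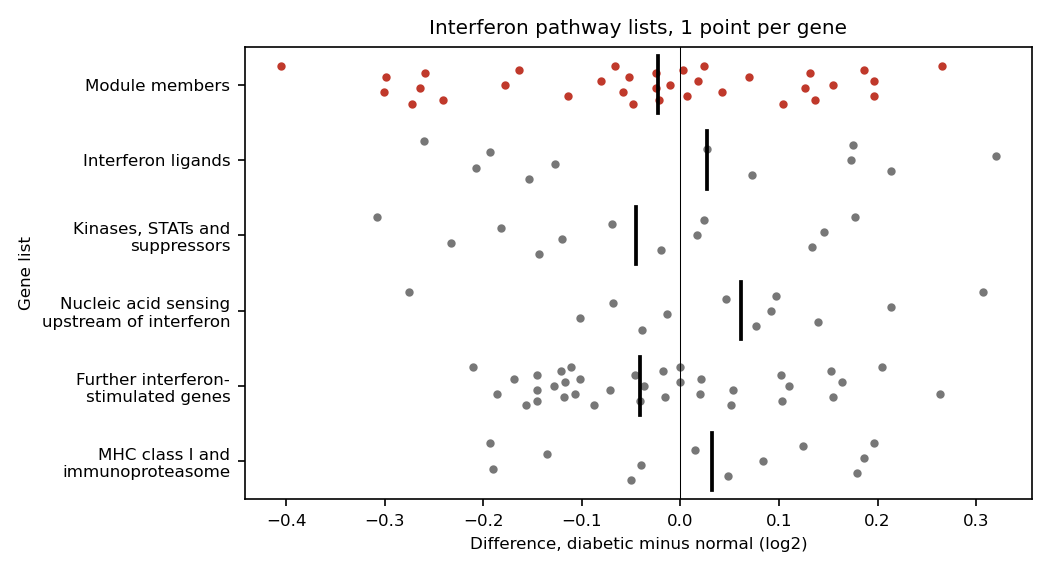
Difference between diabetic and normal arrays (log2) for each measured gene of the module (34 genes) and of the 5 surrounding pathway lists (11, 12, 12, 35 and 12 genes); each point is a gene, its vertical offset has no meaning, and the black bars mark medians. The medians lie between -0.04 and 0.06.

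Immune cells also express interferon-stimulated genes, so marker lists of other cell types were set beside them, and none of the lists was tested. Neutrophil markers summed to 23.5 to 24.0 on the diabetic arrays, against 24.3 to 25.5 on the normal ones, without overlap, with 4 of 14 higher and 10 lower and 0 above the limit on all arrays. Trem1 differed by -0.48 (SE 0.16, unadjusted p 0.0103, adjusted p 0.780 in limma), Camp by -0.24 (SE 0.13), Ngp by 0.23 (SE 0.11) and Lcn2 by 0.18 (SE 0.11). The granulocyte gene S100a8 differed by less than 0.01 in size and was under the limit on every array (named after its values were seen).

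Macrophage and monocyte markers summed to 21.0 to 21.4 on the diabetic arrays, against 21.4 to 22.0 on the normal ones, also without overlap, with 6 of 13 higher, 7 lower and 11 above the limit on no array. Fcgr1, itself inducible by interferon gamma, was the 1 marker above the limit on all arrays and differed by -0.24 (SE 0.17), and Itgam, Csf1r and Cd14 differed by 0.20, -0.19 and -0.17. Most genes of both lists were under the limit on every array, and 19 of the 34 interferon-stimulated genes were lower in diabetic samples while 15 were higher. The part of neutrophils and macrophages in these differences was not tested.

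The other marker lists overlapped between groups. Dendritic cell markers summed to 24.6 to 25.2 on the diabetic arrays, against 23.8 to 25.8 on the normal ones, with 8 of 13 higher, and Zbtb46, Tcf4, Clec9a and Xcr1 differed by 0.19, 0.13, -0.11 and -0.07. This list holds Bst2 of the module. Langerhans and T cell markers summed to 18.3 to 18.9 on both the diabetic and the normal arrays, with 4 of 10 higher, and Cd2, Cd247, Cd3g and Cd3d differed by 0.11, 0.07, -0.07 and -0.07. Fibroblast markers summed to 23.1 to 24.3 on the diabetic arrays, against 22.9 to 23.3 on the normal ones, with 7 of 11 higher, and Col1a1, Pdgfrb, Pdgfra and Postn differed by 0.30, 0.19, 0.16 and -0.20. Endothelial markers summed to 17.4 to 18.0 on the diabetic arrays, against 16.8 to 18.2 on the normal ones, with 4 of 9 higher, and Egfl7, Pecam1, Tek and Eng differed by 0.16, 0.08, -0.07 and -0.10. Of the keratinocyte markers 8 were higher and 8 lower. Trp63, Dsp, Krt16 and Perp differed by -0.31, -0.30, -0.26 and -0.25, with Trp63 the only one at an unadjusted p under 0.05 in limma. The basal keratin genes Krt14 and Krt5, named after their values were seen, went the other way, by 0.23 (SE 0.15) and 0.19 (SE 0.15).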

How the data were processed

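The table as deposited by the authors holds log2 signal for 35556 probe sets on 6 arrays. Partek is named without a version in the submitters' processing notes, and neither the labels nor the file header describe how signals were background-corrected, normalized or summarized. The base of the logarithm was taken from the range of the values. Medians per array ran from 1.75 to 1.80, no scaling was added, and precision is limited by the number of arrays. Columns of other series numbered 0.

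The array annotation gave 1 symbol for 21789 probe sets, several for 1621, and did not list 12146. A RefSeq table of GRCm38.p6 gave current symbols, matching 21698 by gene ID. All 19938 genes were fitted with limma 3.58.1 in R 4.3.3 (lmFit, eBayes with an intensity trend, group as the only term) on all 6 arrays. The fit was checked first on simulated data with changes far larger than any in the module. That check cannot show whether differences of the size seen here would be found. The module, lists and background limit were chosen with earlier results of these data known. All module genes are named, and from each other list up to 4 genes with the smallest unadjusted p. Alternatives covered scaling, variance model, array weights, dim-gene filters, probe set means, a replicate block, single arrays left out and the limit's percentile.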

Additional observations from a re-analysis of the deposited data

How the results depend on the processing

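The number of module genes past the adjusted threshold in limma was 0 under every alternative tried, at unadjusted counts of 0 to 5. Over all genes it was 0, except without single arrays, where it ran from 0 to 2. The count of module genes at an unadjusted p under 0.05, which was 4, was 0 without the dimmer 50% of genes (18 module genes left) and 0 among genes above the background limit on at least 3 arrays (9 left), and ran from 1 to 4 with single arrays left out. With the replicate block it was 5, and the block changed no call by adjusted p. Same-numbered arrays did not deviate together (correlations across genes of -0.02, 0.01 and 0.01). The labels do not say that a shared number marks a pair, and dim signal limits what these correlations can show. The count of genes above the limit on all arrays, which was 7, was 10 with the 90th percentile, 6 with probe set means and 1 with the 99th percentile. The module's median difference ran from -0.05 to 0.01 with single arrays left out and was above 0 without diabetic replicate 1 or 2. Mx2 kept an unadjusted p under 0.05 in all 13 settings that tested it, Rtp4 in 10, Tap1 in 8 and Herc6 in 6. Differences changed sign for Irf9 after quantile normalization (-0.014) and for Trim30a with array weights (below 0.01 in size, -0.0032), and for 14 genes with single arrays left out. Those ranges were -0.14 to 0.063 for Ifngr2, -0.0093 to 0.019 for Irf9, -0.086 to 0.018 for Irf1, -0.11 to 0.14 for Usp18, -0.11 to 0.0090 for Ddx58, -0.19 to 0.0038 for Ifit2 and -0.12 to 0.030 for Oas3. They were -0.19 to 0.26 for Oasl1, -0.029 to 0.11 for Oasl2, -0.092 to 0.12 for Mx1, -0.23 to 0.056 for Isg20, -0.0097 to 0.15 for Bst2, -0.19 to 0.13 for Ifi35 and -0.11 to 0.076 for Trim30a. The cause was not tested. Dim signal limits all of these: 20 of the 34 genes were never above the limit.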
